A study of Homo sapiens with 6 samples.

Results

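The genes described here are 9 members of the BCL2 family, BCL2L11, BBC3, PMAIP1, BIK, BAX, BAK1, BCL2, BCL2L1 and MCL1, together with MOAP1, a partner of BAX. They were taken by symbol from a table of 16199 genes, and all 10 were found. The BCL2 family genes were chosen by family, and MOAP1 was added for its near loss of counts in hemizygous libraries. The libraries came from H1, a human embryonic stem cell line, edited with CRISPR-Cas9 in DICER1, the gene of the enzyme that frees microRNAs from their hairpins. There were 2 libraries each of cells homozygous for the Dicer substitution S1344L (pm/pm in the labels), of hemizygous cells (pm/fs in the labels) and of wild-type cells. All 3 genotypes were kept off doxycycline for 10 days, with 2 dishes of 15 cm per library, and received 150 mJ/cm2 of 254 nm light 2 times. The assay was iCLIP, in which RNA crosslinked to a protein is pulled down with it, here by an antibody against Ago2, the Argonaute protein that carries microRNAs. The number of clones behind a genotype is not given in the sources used here. No label calls the 2 libraries of a genotype separate cultures. The p-values below therefore reflect the spread between libraries, which may be technical.

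The BCL2 family decides whether a cell opens its outer mitochondrial membrane and dies by apoptosis. Guardians (BCL2, BCL2L1 and MCL1) hold the effectors BAX and BAK1 in check, and short proteins that share only the BH3 helix (BCL2L11, also called BIM, BBC3 or PUMA, PMAIP1 or NOXA, and BIK) bind the guardians or switch on the effectors. MOAP1 binds BAX after death receptor signals and also binds MTCH2, the mitochondrial receptor of the cut form of BID. Human embryonic stem cells are known to stand close to the threshold of this pathway and to die readily after DNA damage.

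Several of these genes are known microRNA targets, and the sequences below show which seeds and which precursor arms are concerned, since the series title speaks of microRNA function being lost as well as gained. In each sequence the capitals mark the seed, bases 2 to 8. The sequences are those of RefSeq, build GRCh38.p14. The first pair, from the 5p arm, is known to repress BCL2L11 in mouse lymphocytes:
hsa-miR-17-5p: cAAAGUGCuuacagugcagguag
hsa-miR-20a-5p: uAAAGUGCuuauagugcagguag
The second pair, also from the 5p arm, is known to repress BCL2 in human leukaemia cells:
hsa-miR-15a-5p: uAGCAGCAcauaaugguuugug
hsa-miR-16-5p: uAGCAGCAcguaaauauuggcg
The third pair comes from the 3p arm and shares the seed AUUGCAC, and hsa-miR-25-3p has been described to target BCL2L11 and MOAP1 in human cancer cells:
hsa-miR-92a-3p: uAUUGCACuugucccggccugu
hsa-miR-25-3p: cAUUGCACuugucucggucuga
The last, again from the 3p arm, is known to repress MCL1 in human tumour cells:
hsa-miR-29b-3p: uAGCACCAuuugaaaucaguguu

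Library totals lay between 38.2 M and 52.9 M counts. Levels are given as CPM, counts scaled to a common library total with TMM factors, and SDs are over 2 libraries. DICER1 had 129 and 118 CPM in homozygous, 118 and 96.4 CPM in hemizygous and 169 and 126 CPM in wild-type libraries. A substitution need not alter a count, and the fs of the hemizygous label is not spelled out in the sources used here. These counts were therefore not used to check the genotype. All 10 pluripotency markers were counted, with summed levels of 9870 to 10230 CPM in homozygous, 10192 to 11142 CPM in hemizygous and 9510 to 9835 CPM in wild-type libraries. Of 10 fibroblast markers 7 were in the table, with sums of 647 to 693 CPM in homozygous, 724 to 865 CPM in hemizygous and 806 to 896 CPM in wild-type libraries. Of 10 neuroectoderm markers 6 were in the table, with sums of 421 to 434 CPM in homozygous, 482 to 580 CPM in hemizygous and 462 to 509 CPM in wild-type libraries. ZIC1, DCX and FABP7 of that list were higher than wild-type in all 4 mutant libraries, with log2 fold changes of 0.71, 0.40 and 1.20 in homozygous and 1.54, 0.76 and 0.75 in hemizygous cells, none called. The list did not move as a whole. MAP2 and NES lay below wild-type in both homozygous libraries, at -0.42 and -0.25, and overlapped with it in hemizygous cells, at 0.24 and 0.02. TUBB3 overlapped with wild-type in homozygous cells, at 0.08, and lay below it in hemizygous cells, at -0.05. Of 10 mesendoderm markers 3 were in the table, with sums of 363 to 379 CPM in homozygous, 336 to 396 CPM in hemizygous and 260 to 277 CPM in wild-type libraries, nearly all of it KDR, with log2 fold changes of 0.47 in homozygous and 0.45 in hemizygous cells. Of 8 trophoblast markers 1 was in the table, and of 8 blood markers 0. The part of other cell types in the results below was not tested. In libraries of this kind fewer cells of a type and less RNA per cell cannot be told apart. Whether a count follows Ago2 binding or transcript level was not tested.

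MOAP1 lies on chromosome 14, bases 93182199 to 93184897 on the minus strand of GRCh38.p14, and RefSeq places no other gene over it. It had 5 and 5 counts in hemizygous libraries, against 89 and 72 counts in wild-type libraries. These are the counts for which MOAP1 was chosen, and they are given as a description. Exact 95% Poisson intervals, which cover counting error only, ran from 1.62 to 11.7 counts for each hemizygous library, against 71.5 to 110 and 56.3 to 90.7 counts for the wild-type libraries. In CPM it stood at 0.113 ± 0.0251 (SD, n = 2) in hemizygous and 1.78 ± 0.0891 (SD, n = 2) in wild-type libraries. The pooled rate in hemizygous libraries was 6.20% of the wild-type rate, with an exact 95% interval of 2.92% to 11.7% for counting error. The fitted log2 fold change was -3.97, the lowest of the 16199 genes in that comparison.

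The stated reason for that choice names only the hemizygous libraries, but earlier results of these data were known when it was made. In the homozygous libraries MOAP1 stood between the other genotypes. It had 39 and 42 counts in homozygous libraries, 0.859 and 1.03 CPM, against 1.72 and 1.84 CPM in wild-type libraries. Both homozygous libraries lay below both wild-type libraries and above both hemizygous ones. The pooled rate was 53.5% of the wild-type rate (exact 95% interval for counting error 40.4% to 70.3%). The log2 fold change of homozygous against wild-type was -0.91 (SE 0.30), with an unadjusted p of 0.0198 so it was not called (adjusted p = 1.00, edgeR quasi-likelihood). A block for the replicate number gave an adjusted p of 0.338. This comparison shares its wild-type libraries with the counts that chose MOAP1. Between libraries of the same number the log2 difference was -0.96 for replicate 1 and -0.81 for replicate 2.

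**Figure D1:**
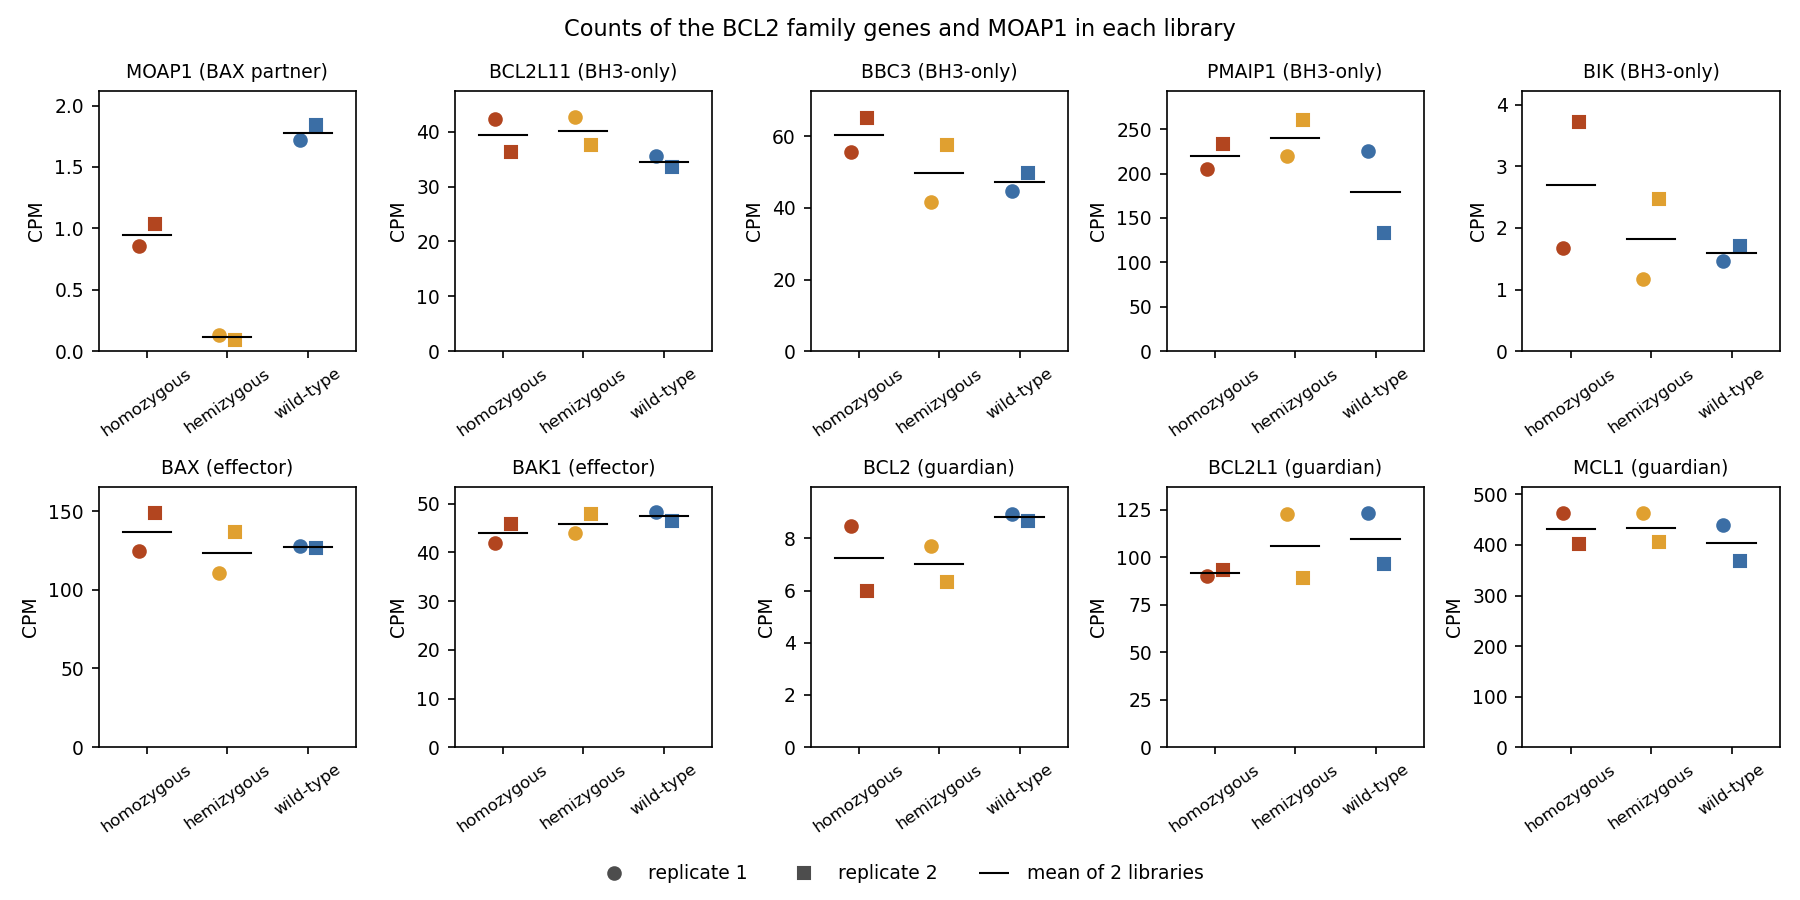
Level of each of the 10 genes in CPM (linear axes from 0) in homozygous, hemizygous and wild-type libraries, with circles for replicate 1, squares for replicate 2 and a bar at the mean. MOAP1 separates the 3 genotypes, at 0.947 CPM in homozygous, 0.113 CPM in hemizygous and 1.78 CPM in wild-type libraries, while the libraries of the other genes lie close together or overlap in most comparisons.

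Since MOAP1 stood furthest from wild-type of the 10 genes, the 250 bases before its start (chr14:93184898-93185147, minus strand, RefSeq, GRCh38.p14) are printed, with the letters of the cAMP response element, TGACGTCA, in capitals:
MOAP1: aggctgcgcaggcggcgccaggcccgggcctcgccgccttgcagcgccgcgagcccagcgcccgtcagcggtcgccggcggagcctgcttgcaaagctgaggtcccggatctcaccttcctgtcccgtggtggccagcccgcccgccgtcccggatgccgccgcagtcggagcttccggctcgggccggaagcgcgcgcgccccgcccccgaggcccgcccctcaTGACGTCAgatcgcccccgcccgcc
The window holds 38 CpG dinucleotides, where the median over 35116 RefSeq promoter windows of that length is 11. It is 78.4% G and C, against a median of 58.0%. The palindrome TGACGTCA begins 25 bases before the start, and 1.65% of all windows hold it. Of the 8 genes with a promoter in the RefSeq table, with 9 windows in all, MOAP1 was the only one with this motif. The E-box CACGTG, also a palindrome, was found 4 times in the BAX window and 1 time in the BBC3 window, and 6.34% of all windows hold it. The GC box GGGCGG, searched on both strands, was found 4 times each for MOAP1 and PMAIP1, 3 times for BCL2L11, 2 times for BAK1 and 1 time for BAX, and 42.6% of all windows hold it. None of the 3 motifs contains another. These matches describe the sequence and are not sites shown to be bound.

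The neighbours of MOAP1 analysed here were the 4 nearest on each side that the table lists. GOLGA5, a Golgi tether, had 40.3 and 45.8 CPM in homozygous, 45.7 and 47.3 CPM in hemizygous and 51.2 and 42.5 CPM in wild-type libraries. DDX24, an RNA helicase, had 4.67 and 3.84 CPM in homozygous, 4.69 and 4.27 CPM in hemizygous and 4.94 and 4.35 CPM in wild-type libraries. For GOLGA5 the hemizygous libraries lay inside the wild-type range, and for DDX24 they overlapped with it. The log2 fold changes of hemizygous against wild-type were -0.01 (SE 0.15) and -0.05 (SE 0.23). The nearest, ITPK1, an inositol phosphate kinase, ends 66.3 kb away and jumped in a single library. It had 1.30 and 1.03 CPM in homozygous, 0.913 and 28.0 CPM in hemizygous and 1.33 and 1.05 CPM in wild-type libraries. RIN3, LGMN, SERPINA5 and DICER1-AS1 had log2 fold changes of hemizygous against wild-type between -0.09 and 0.07. DICER1 itself begins 1.90 Mb from MOAP1 on the same chromosome, with 2 other genes of the table between them, and had a log2 fold change of -0.46 (SE 0.19) in hemizygous libraries, with an unadjusted p of 0.0456, not called (adjusted p = 1.00 by edgeR). Both hemizygous libraries lay below both wild-type libraries for DICER1. The order of its means, 123 CPM in homozygous, 107 CPM in hemizygous and 148 CPM in wild-type libraries, was that of MOAP1. Unlike those of MOAP1, the homozygous libraries of DICER1 overlapped with both other genotypes. Over the 458 genes of chromosome 14 in the table the median log2 fold change of hemizygous against wild-type was 0.0022.

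**Figure D2:**
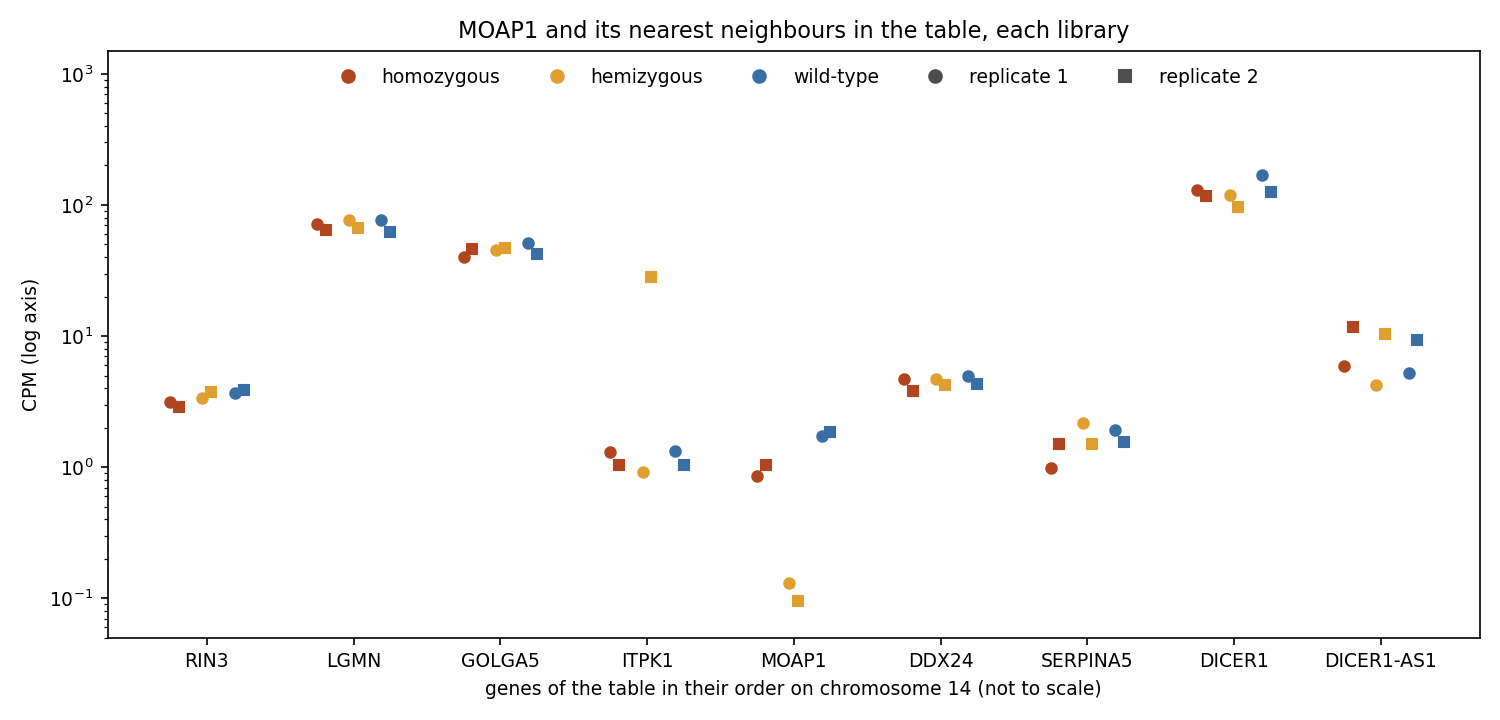
Level in CPM (log axis) of MOAP1 and of the 4 nearest genes of the table on each side, in their order on chromosome 14 and not to scale, with a point per library. The hemizygous libraries stand apart at MOAP1, at 0.130 and 0.0949 CPM, and hemizygous replicate 2 alone at ITPK1, at 28.0 CPM.

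Of the BH3-only genes, none was called. BCL2L11, the activator BIM, had 42.3 and 36.4 CPM in homozygous, 42.7 and 37.7 CPM in hemizygous and 35.5 and 33.6 CPM in wild-type libraries. All 4 mutant libraries lay above both wild-type libraries. Its log2 fold change of 0.19 (SE 0.14) in homozygous and 0.22 (SE 0.14) in hemizygous libraries was not called (adjusted p = 1.00 in both, edgeR). Both values rest on the same wild-type libraries. Within each genotype replicate 1 was the higher, and between libraries of the same number the difference was 0.25 and 0.12 in homozygous and 0.27 and 0.16 in hemizygous cells.

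BBC3, which encodes PUMA, a potent activator induced by p53, had 55.5 and 64.9 CPM in homozygous, 41.7 and 57.6 CPM in hemizygous and 44.8 and 49.8 CPM in wild-type libraries. Both homozygous libraries were above both wild-type libraries, while the hemizygous libraries lay on either side of them. Its log2 fold change was 0.35 (SE 0.19) in homozygous libraries and 0.07 (SE 0.19) in hemizygous libraries. The homozygous value had the lowest unadjusted p of the 9 BCL2 family genes in that comparison, 0.110 (adjusted p = 1.00, edgeR).

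PMAIP1, which encodes NOXA, a p53-induced inhibitor of MCL1, had 205 and 234 CPM in homozygous, 220 and 260 CPM in hemizygous and 226 and 133 CPM in wild-type libraries. Wild-type replicate 2 stood alone at the low end, and the other 5 libraries overlapped between genotypes. Its log2 fold change was 0.29 (SE 0.25) in homozygous and 0.42 (SE 0.25) in hemizygous libraries, not called. Without wild-type replicate 2 it was -0.03 in homozygous and 0.10 in hemizygous libraries, and without wild-type replicate 1 it was 0.73 in homozygous and 0.86 in hemizygous libraries.

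BIK, a BH3-only protein of the endoplasmic reticulum, was counted at low levels, from 45 to 151 counts a library. It had 1.67 and 3.72 CPM in homozygous, 1.17 and 2.47 CPM in hemizygous and 1.47 and 1.71 CPM in wild-type libraries. All 3 genotypes overlapped. Its log2 fold change was 0.76 (SE 0.50) in homozygous and 0.21 (SE 0.50) in hemizygous libraries, the widest errors among the 9 BCL2 family genes. Replicate 2 was above replicate 1 by 1.13 on the log2 scale in homozygous and 1.04 in hemizygous cells, more than the fitted differences between genotypes. Without homozygous replicate 2 the homozygous value was 0.077, and without homozygous replicate 1 it was 1.23.

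The effectors differed little between genotypes. BAX, which pierces the mitochondrial outer membrane, had 124 and 149 CPM in homozygous, 111 and 137 CPM in hemizygous and 128 and 126 CPM in wild-type libraries. The wild-type libraries lay inside the range of each mutant genotype, and the log2 fold change was 0.10 (SE 0.16) in homozygous and -0.04 (SE 0.16) in hemizygous libraries. BAK1, the other effector, had 42.0 and 45.8 CPM in homozygous, 44.0 and 47.8 CPM in hemizygous and 48.3 and 46.4 CPM in wild-type libraries. Both homozygous libraries lay below wild-type, by a narrow margin, and the hemizygous libraries overlapped with it. BAK1 had a log2 fold change of -0.11 (SE 0.13) in homozygous and -0.05 (SE 0.13) in hemizygous cells. BAK1 varied least of the 10 genes: its SD of log2 CPM over the 6 libraries was 0.076, and 6.98% of all genes had a smaller one.

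Of the guardians, BCL2 had 8.48 and 5.98 CPM in homozygous, 7.72 and 6.32 CPM in hemizygous and 8.93 and 8.67 CPM in wild-type libraries. All 4 mutant libraries lay below both wild-type libraries, homozygous replicate 1 by a narrow margin. The log2 fold change was -0.28 (SE 0.24) in homozygous and -0.33 (SE 0.24) in hemizygous libraries, not called. It was -0.053 without homozygous replicate 2 and -0.56 without homozygous replicate 1 in homozygous cells, and -0.19 without hemizygous replicate 2 in hemizygous cells. BCL2L1, whose long product BCL-XL protects cells, had 90.1 and 93.4 CPM in homozygous, 123 and 88.9 CPM in hemizygous and 123 and 96.5 CPM in wild-type libraries. Both homozygous libraries were below both wild-type libraries, while the hemizygous libraries spread as widely as the wild-type ones. Its log2 fold changes were -0.26 (SE 0.20) in homozygous and -0.05 (SE 0.20) in hemizygous cells. The counts do not separate its protective long form from its short, death-promoting form. RefSeq places the antisense gene BCL2L1-AS1 and LOC124904883 over it, so its reads carry that uncertainty. The same holds for BCL2, which LOC124904379 overlaps, and for BBC3, which the microRNA genes MIR3190 and MIR3191 overlap.

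MCL1, a short-lived guardian, had 462 and 401 CPM in homozygous, 464 and 405 CPM in hemizygous and 439 and 367 CPM in wild-type libraries. Replicate 1 was above replicate 2 in every genotype, by 0.20, 0.20 and 0.26 on the log2 scale in homozygous, hemizygous and wild-type cells, and the genotypes overlapped. The log2 fold changes were 0.10 (SE 0.16) in homozygous and 0.11 (SE 0.16) in hemizygous libraries. Between libraries of the same number the difference from wild-type was 0.07 and 0.13 in homozygous and 0.08 and 0.14 in hemizygous cells.

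**Figure D3:**
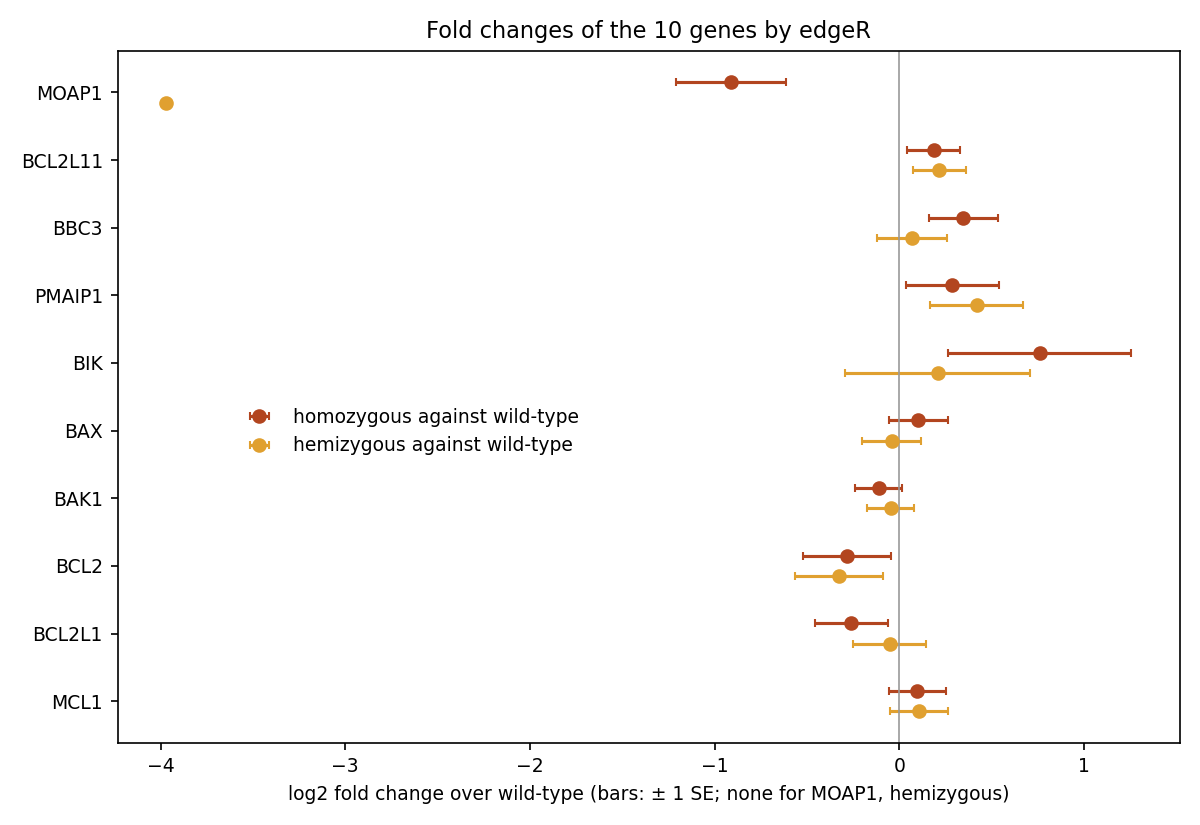
Log2 fold change over wild-type of the 10 genes, homozygous above hemizygous in each row, with bars of 1 SE either side. Apart from MOAP1 the values lie between -0.28 and 0.76 in homozygous and between -0.33 and 0.42 in hemizygous cells. No bar is drawn for MOAP1 in hemizygous cells, where it was chosen.

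Of the 10 genes, 0 were called in any of the 3 comparisons by edgeR at an adjusted p under 0.05. The background was the same: 0% of all genes were called in homozygous against wild-type, 0% in hemizygous against wild-type and 0% in homozygous against hemizygous. At an unadjusted p under 0.05 edgeR had 435, 141 and 124 genes in these comparisons. DESeq2 called 10, 7 and 10, and none of the other 9 genes was among them. MOAP1 was among them in the last 2 comparisons. These involve the libraries it was chosen on, so its calls there are no test. A block for the replicate number gave 0, 1 and 1 calls by edgeR, none of them among the 10. In homozygous against wild-type the libraries did not overlap for 6 of the 10 genes, BBC3 and BCL2L11 higher and BAK1, BCL2, BCL2L1 and MOAP1 lower, where the background over all genes was 27.9% (14.2% higher and 13.6% lower). In hemizygous against wild-type they did not overlap for 3, BCL2L11 higher and BCL2 and MOAP1 lower, against 17.3% of all genes (8.13% higher and 9.21% lower). MOAP1 was chosen on the hemizygous and wild-type libraries. Leaving it out, 2 of 9 genes did not overlap in hemizygous against wild-type, a share near the background. In homozygous against wild-type, 5 of 9 did not overlap without MOAP1, beside 27.9% of all genes, and none of them was called.

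Between the mutant genotypes the 9 BCL2 family genes all overlapped, and MOAP1 alone did not, against 21.4% of all genes (11.0% higher and 10.4% lower in homozygous). The largest differences among the 9 were for BIK, with a log2 fold change of homozygous against hemizygous of 0.55 (SE 0.49), and for BBC3, with 0.28 (SE 0.19), both with an adjusted p of 0.999 by edgeR. MOAP1 had 3.06. The median log2 fold change of the 10 genes was 0.10 in homozygous against wild-type, 0.015 in hemizygous against wild-type and 0.018 in homozygous against hemizygous. The medians over all genes were -0.0034, -0.0026 and -0.00035. Without MOAP1 the medians of the other 9 genes were 0.10, 0.070 and -0.0084 in the same order.

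**Figure D4:**
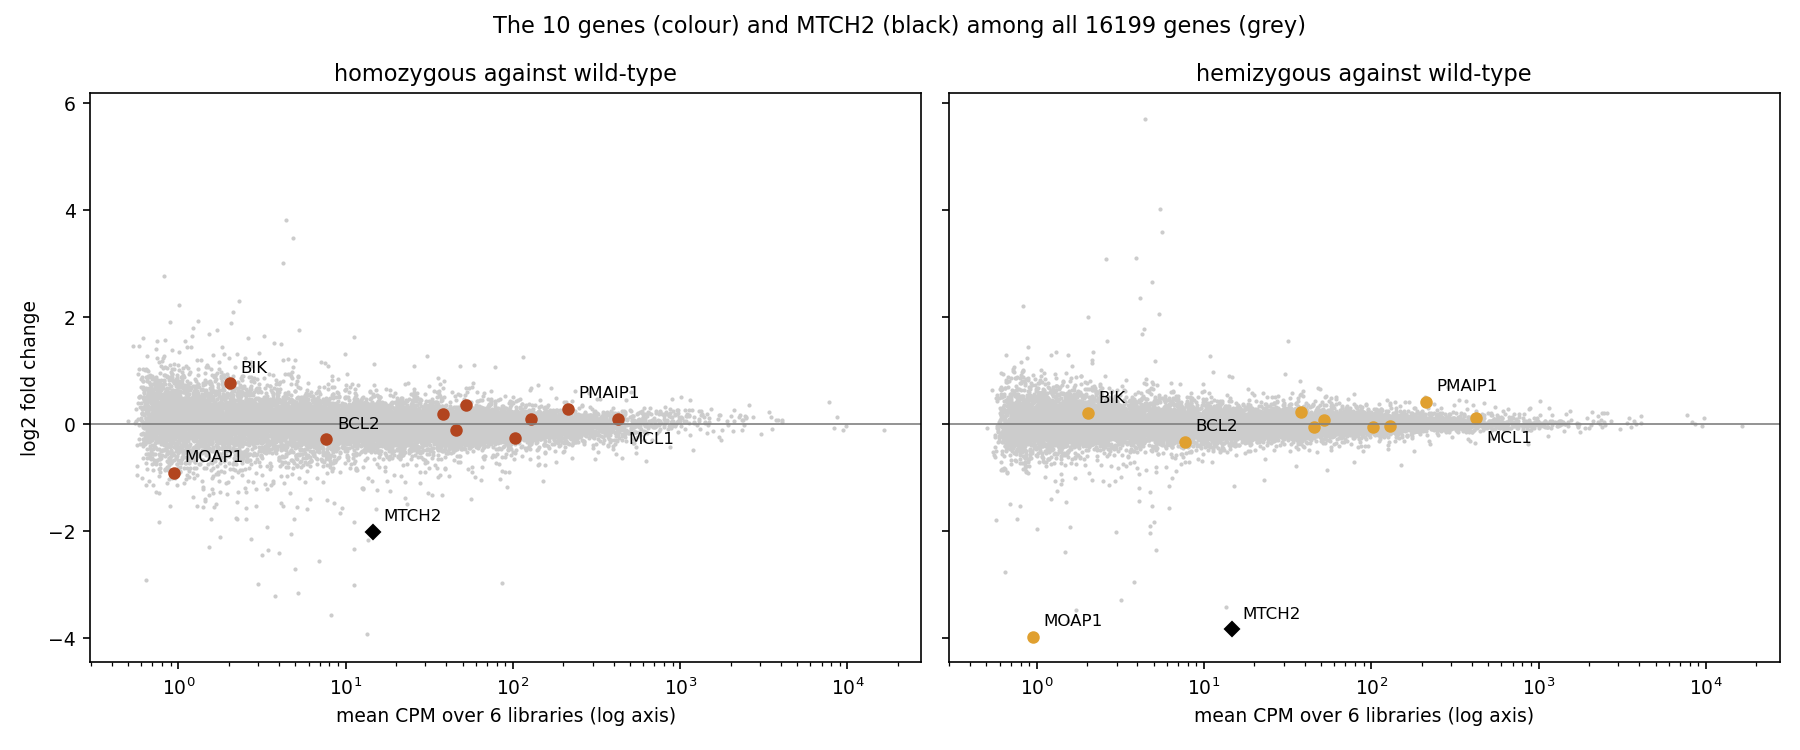
Log2 fold change against mean CPM over the 6 libraries (log axis) for all 16199 genes in grey, for homozygous and hemizygous against wild-type, with the 10 genes in colour and MTCH2 in black. In hemizygous cells MOAP1 has the lowest value of all genes, -3.97, and MTCH2 lies near it at -3.83, while the other 9 genes lie inside the bulk.

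Set by the seeds printed above, the described targets of the 5p guides did not move together. BCL2L11 was above wild-type in all 4 mutant libraries and BCL2 below it in all 4, both uncalled. Of the described targets of 3p guides, MCL1 lay at log2 fold changes of 0.10 and 0.11 in homozygous and hemizygous cells, and MOAP1 at -0.91 and -3.97. BCL2L11 belongs to both sets. The hairpin row MIR25, the precursor of hsa-miR-25-3p, had 69 and 122 counts in homozygous, 62 and 98 counts in hemizygous and 78 and 88 counts in wild-type libraries, which overlapped in every comparison. Target sites were not searched here.

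The replicate number moved with several of these genes. BIK, BBC3, PMAIP1, BAX and BAK1 were lower in replicate 1 of both mutant genotypes, and BCL2L11, MCL1 and BCL2 higher in replicate 1 of all 3 genotypes. The median absolute log2 difference between replicates over the 10 genes was 0.22 in homozygous, 0.30 in hemizygous and 0.13 in wild-type cells, beside 0.21, 0.29 and 0.25 over all genes. Replicates of a genotype differed over 4-fold for 154 genes, 0.951% of the table, and for 0 of the 10. The SD of log2 CPM over the 6 libraries was 1.65 for MOAP1 and 0.58 for BIK, and 99.9% and 95.2% of all genes had a smaller one. The MOAP1 value includes the hemizygous counts for which MOAP1 was chosen. For the other 8 genes the SD lay between 0.076 and 0.34.

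The count ratio of BAX to BCL2, a common index of the balance between death and survival, is set here only between libraries, since gene lengths differ. It was 14.7 and 24.8 in homozygous, 14.3 and 21.6 in hemizygous and 14.3 and 14.6 in wild-type libraries. Replicate 2 of each mutant genotype stood above the other 4 libraries, which lay close together. The log2 difference was 0.40 for homozygous against wild-type (p = 0.333, two-sided exact permutation test, n = 2 each) and 0.29 for hemizygous against wild-type (p = 0.667, two-sided exact permutation test, n = 2 each), where 0.333 is the smallest p that 2 libraries a genotype allow. The ratio of PMAIP1 to MCL1 was 0.443 and 0.582 in homozygous, 0.474 and 0.643 in hemizygous and 0.514 and 0.362 in wild-type libraries, and overlapped between genotypes. The ratio of BAX to BCL2L1 was 1.38 and 1.59 in homozygous, 0.900 and 1.54 in hemizygous and 1.04 and 1.31 in wild-type libraries. Both homozygous libraries lay above both wild-type ones. That of BCL2L11 to MCL1 was 0.0915 and 0.0907 in homozygous, 0.0921 and 0.0930 in hemizygous and 0.0809 and 0.0914 in wild-type libraries. Both hemizygous libraries lay above both wild-type ones, by a narrow margin. Over the 12 tests, 4 ratios in 3 comparisons, the Benjamini-Hochberg adjusted p was at least 0.727.

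The genes whose counts followed MOAP1 most closely were ZNF849P, ZNF492, MIR4458HG, MTCH2 and MLLT6, by Pearson r of log2 CPM over the 6 libraries among 110 other genes with an SD of at least 1. The r was 0.94, 0.90, 0.86, 0.76 and 0.76, given as a description over libraries that share genotype and depth. These values include the hemizygous counts for which MOAP1 was chosen. MTCH2 is also a known binding partner of MOAP1. It had 14.4 and 2.12 CPM in homozygous, 2.03 and 2.62 CPM in hemizygous and 35.9 and 30.8 CPM in wild-type libraries. All 4 mutant libraries lay below both wild-type libraries, but the homozygous replicates differed 6.80-fold. Its log2 fold changes were -2.01 (SE 0.73) in homozygous and -3.83 (SE 0.80) in hemizygous cells (adjusted p = 1.00 in both, edgeR). MIR4458HG, a microRNA host gene, had 0.463 and 1.01 CPM in homozygous, 0.156 and 0.380 CPM in hemizygous and 3.70 and 3.48 CPM in wild-type libraries. The zinc finger gene ZNF492 and the pseudogene ZNF849P have near copies that make their counts uncertain, and in homozygous libraries they overlapped with wild-type. MLLT6 had 0.683 and 1.03 CPM in homozygous, 0.183 and 0.190 CPM in hemizygous and 0.308 and 1.02 CPM in wild-type libraries. Its homozygous libraries also overlapped with wild-type.

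The other genes of the pathway were grouped by role, and 0 were called in any list or comparison by edgeR. The lists were drawn up with earlier results of these data known. Of the 4 other BH3-only genes (BAD, BID, BMF and HRK), 1 was above and 3 below 0 in homozygous cells, and 0 above and 4 below in hemizygous cells, with medians of -0.11 and -0.17. HRK, a BH3-only protein of neurons, had 7.38 and 6.94 CPM in homozygous, 7.09 and 5.29 CPM in hemizygous and 8.52 and 8.21 CPM in wild-type libraries, below wild-type in all 4 mutant libraries. BMF, a BH3-only protein tied to the cytoskeleton, had log2 fold changes of 0.21 (SE 0.28) in homozygous and -0.04 (SE 0.28) in hemizygous cells. Of 5 further effectors and guardians in the table, BCL2L2, the guardian BCL-W, stood at 19.2 and 22.7 CPM in homozygous, 21.5 and 23.0 CPM in hemizygous and 27.0 and 25.8 CPM in wild-type libraries. It too was below wild-type in all 4 mutant libraries, with log2 fold changes of -0.34 (SE 0.15) in homozygous and -0.25 (SE 0.15) in hemizygous cells. BCL2L10, a further member of the family, had 0.27 (SE 0.37) in homozygous and 0.24 (SE 0.37) in hemizygous cells.

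Of 11 genes of the caspases and the apoptosome, 2 were above and 9 below 0 in homozygous cells (median log2 fold change -0.15), and 6 above and 5 below in hemizygous cells (median 0.017). CASP9, the initiator caspase of the apoptosome, had log2 fold changes of 0.11 (SE 0.19) in homozygous and -0.04 (SE 0.19) in hemizygous cells. Of 8 caspase inhibitors and their antagonists, 2 were above and 6 below 0 in homozygous and 3 above and 5 below in hemizygous cells. XIAP, which blocks caspases, had log2 fold changes of -0.15 (SE 0.30) in homozygous and 0.20 (SE 0.30) in hemizygous cells, and the mitochondrial nuclease ENDOG had -0.07 (SE 0.25) in homozygous and -0.35 (SE 0.26) in hemizygous cells.

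In the BNIP group, which includes the mitophagy receptors BNIP3 and BNIP3L, 4 of 5 genes were above 0 in homozygous and 3 of 5 in hemizygous cells. BNIP3, a receptor induced by hypoxia, had 257 and 105 CPM in homozygous, 55.9 and 120 CPM in hemizygous and 60.8 and 90.3 CPM in wild-type libraries. The homozygous libraries lay above wild-type, led by replicate 1, and hemizygous replicate 2 overlapped with them. Its log2 fold change was 1.26 (SE 0.51) in homozygous cells, with an unadjusted p of 0.0434 (adjusted p = 1.00, edgeR), and 0.22 (SE 0.50) in hemizygous cells. BNIPL had 0.012 (SE 0.46) in homozygous and -0.37 (SE 0.46) in hemizygous cells.

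Of 11 MOAP1 partners and regulators, 3 were above and 8 below 0 in homozygous and 5 above and 6 below in hemizygous cells. Without MTCH2, the log2 fold changes in hemizygous cells lay between -0.30 and 0.25. RASSF1, whose A isoform opens MOAP1 to BAX, had 13.3 and 15.4 CPM in homozygous, 10.1 and 15.3 CPM in hemizygous and 13.3 and 14.6 CPM in wild-type libraries, which overlapped. TNFRSF10A, a TRAIL receptor, had log2 fold changes of -0.51 (SE 0.43) in homozygous and 0.25 (SE 0.43) in hemizygous cells. TNFRSF1A, the receptor for tumour necrosis factor that recruits MOAP1, was singled out after its values were seen. It had 27.5 and 26.0 CPM in homozygous, 31.8 and 29.97 CPM in hemizygous and 34.9 and 41.2 CPM in wild-type libraries, with no overlap between any of the 3 genotypes, and log2 fold changes of -0.51 (SE 0.14) in homozygous and -0.30 (SE 0.14) in hemizygous cells, not called.

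MOAP1 is also known as PNMA4, a gene derived from a retrotransposon, and its relatives did not share its levels. Of 9 family genes in the table, 3 were above and 6 below 0 in both mutant genotypes, and the log2 fold changes in hemizygous cells lay between -0.26 for PNMA6A and 0.21 for PNMA8C. PNMA6A has similar copies on its chromosome, so its counts are uncertain. In homozygous cells they lay between -0.43 and 0.25.

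Of 13 p53 axis genes, 3 were above and 10 below 0 in homozygous cells (median -0.22) and 7 above and 6 below in hemizygous cells (median 0.052). CDKN1A, the cell cycle inhibitor p21, had 32.8 and 46.2 CPM in homozygous, 75.7 and 45.04 CPM in hemizygous and 112 and 44.6 CPM in wild-type libraries. Replicate 1 of hemizygous and wild-type cells stood above the other 4 libraries, which lay close together. FAS, a death receptor, had 6.17 and 5.27 CPM in homozygous, 13.1 and 6.38 CPM in hemizygous and 11.9 and 4.63 CPM in wild-type libraries, again high in replicate 1 of the same genotypes. Of 7 turnover regulators, FBXW7, a ubiquitin ligase subunit that marks MCL1, had log2 fold changes of -0.07 (SE 0.17) in homozygous and 0.16 (SE 0.17) in hemizygous cells. FOXO3, an activator of BCL2L11, had -0.21 (SE 0.19) in homozygous and -0.19 (SE 0.19) in hemizygous cells.

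**Figure D5:**
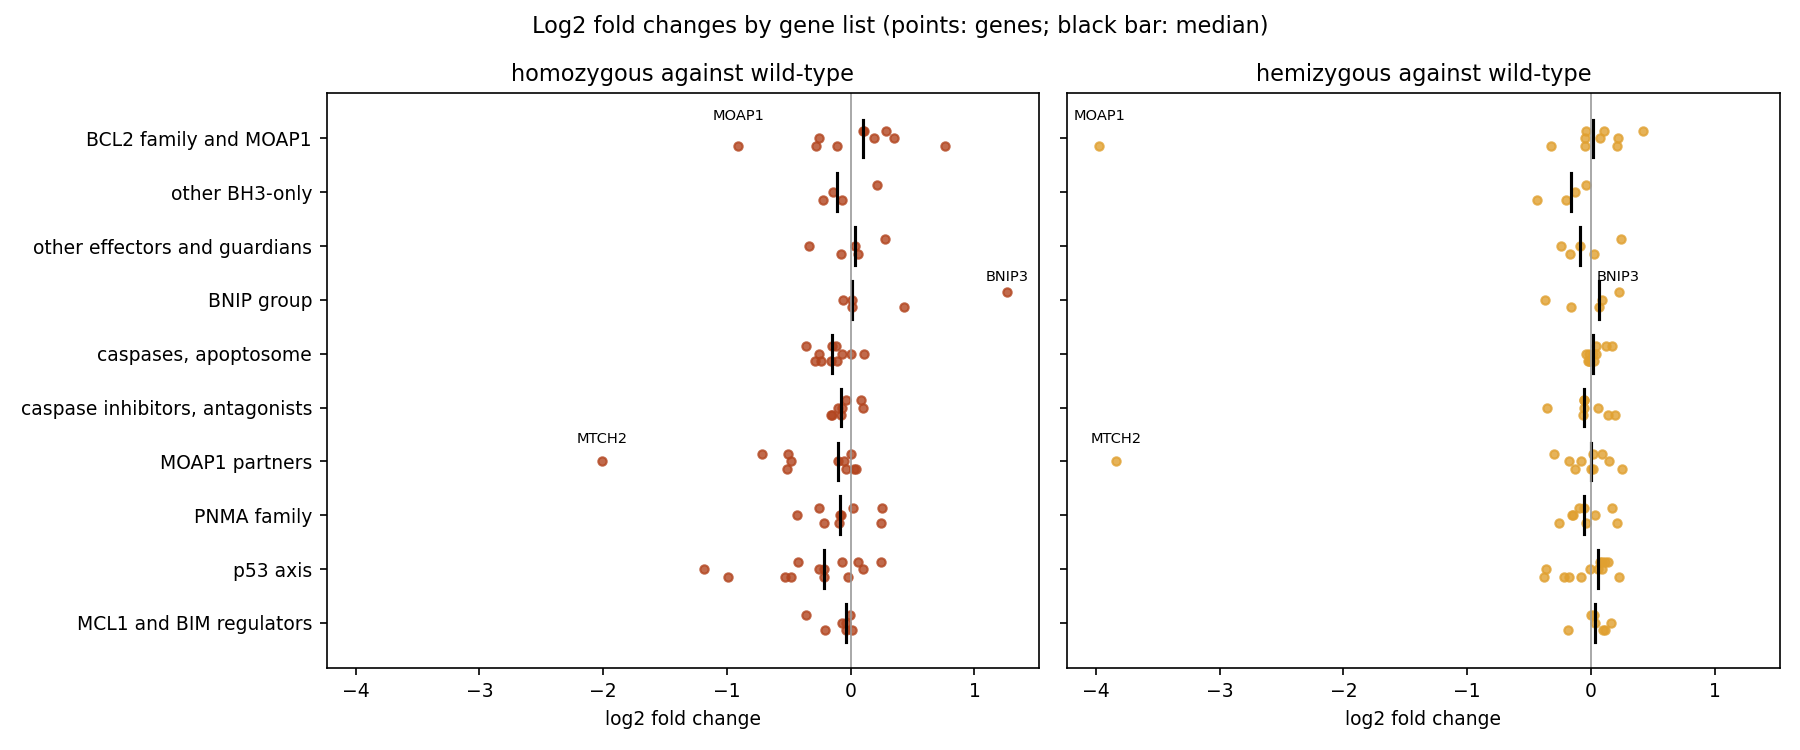
Log2 fold change over wild-type of each gene in the 10 lists (points), with the list's median as a black bar, for homozygous and hemizygous cells. MOAP1 and MTCH2 stand apart from their lists, at -0.91 and -2.01 in homozygous and -3.97 and -3.83 in hemizygous cells, and BNIP3 at 1.26 in homozygous cells.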

How the data were processed

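The authors deposited raw counts, a whole number for each gene and library, made on hg38 per the submitters' processing notes. No source used here gives the aligner, counter, annotation, strand setting or handling of molecular identifiers. IgG pull-downs were not used here. The lowest row total was 132, and 0 columns were left unused. All 16199 genes passed filterByExpr. edgeR 4.0.16 (R 4.3.3) fitted a mean per genotype to the 6 libraries with TMM scaling and its quasi-likelihood test. Calls needed a p under 0.05 after Benjamini-Hochberg adjustment over all genes. Log2 CPM use a prior count of 2, and SEs were derived from each fold change and F statistic. Libraries held 38.2 M to 52.9 M counts, so counting error matters mainly near 1 CPM.

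The members and lists were chosen with earlier results of these data known. From each further pathway list were named the genes with the highest and lowest log2 fold change in hemizygous against wild-type. Only genes of at least 1 CPM were eligible, and any called gene was to be added. RASSF1 and TNFRSF1A were named outside this rule, and the naming of marker genes did not follow it. A gene that this rule names is not reported here. The replicate numbers come from the titles. Deviations from the genotype mean were correlated across genes between libraries of the same number. The r was 0.48 for homozygous with hemizygous, 0.36 for homozygous with wild-type and 0.74 for hemizygous with wild-type libraries. With 2 libraries a genotype these values do not establish that the numbers pair the libraries, and no label states a pairing. The main fit and the permutation tests did not use the number, and the replicate block did. Alternatives were RLE scaling, other filters, DESeq2 1.42.0, limma-voom (limma 3.58.1), fewer genotypes in the fit, the replicate block and each library left out. The fit was tested on simulated counts.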

Additional observations from a re-analysis of the deposited data

How the results depend on the processing

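With 2 libraries a genotype, standard errors of the log2 fold changes of the BCL2 family genes other than BIK lay between 0.13 and 0.25, and MOAP1 at 5 counts a library in hemizygous cells is limited by counting error. Of 30 fold changes of the 10 genes, 16 kept their direction under all 13 alternatives, and the other 14 turned only when a library was left out. DESeq2 called 7 genes in hemizygous against wild-type, 10 in homozygous against wild-type and 10 in homozygous against hemizygous. The replicate block gave 1 called gene in hemizygous against wild-type and 1 in homozygous against hemizygous, none of the 10, and changed no other call. RLE scaling, both other filters, only the 2 genotypes compared and limma-voom gave 0 calls. The filter of 20 counts in 2 libraries and no filter kept all 16199 genes, so both repeated the main fit and could change nothing. Leaving out a library, with the lone library of a genotype assumed to vary like the others, gave 0 to 2 called genes in hemizygous against wild-type (2 without either hemizygous library, 1 without wild-type replicate 1). It gave 0 to 1 in homozygous against wild-type (1 without hemizygous replicate 1 or wild-type replicate 1) and 0 to 3 in homozygous against hemizygous (3 without hemizygous replicate 1).

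Leaving out a library moved the median of the 10 genes between -0.14 and 0.067 in hemizygous against wild-type and between -0.020 and 0.18 in homozygous against wild-type. In hemizygous against wild-type the fold changes that turned ranged from -0.20 to 0.11 for BAX, -0.11 to 0.021 for BAK1, -0.18 to 0.29 for BBC3, -0.30 to 0.16 for BCL2L1, -0.43 to 0.64 for BIK and -0.0041 to 0.25 for MCL1. In homozygous against wild-type they ranged from -0.030 to 0.23 for BAX, -0.028 to 0.73 for PMAIP1 and -0.011 to 0.24 for MCL1. In homozygous against hemizygous they ranged from -0.14 to 0.074 for BCL2L11, -0.23 to 0.27 for BCL2, -0.42 to 0.048 for BCL2L1, -0.11 to 0.094 for MCL1 and -0.13 to 1.19 for BIK. MOAP1 ranged from -1.05 to -0.78 in homozygous against wild-type, from -4.18 to -3.74 in hemizygous against wild-type and from 2.83 to 3.28 in homozygous against hemizygous. Fold changes of the BCL2 family genes that kept their direction ranged, over all alternatives, as follows. In homozygous against wild-type they ran from 0.074 to 0.29 for BCL2L11, 0.23 to 0.46 for BBC3, 0.077 to 1.23 for BIK, -0.17 to -0.050 for BAK1, -0.56 to -0.053 for BCL2 and -0.41 to -0.065 for BCL2L1. In hemizygous against wild-type they ran from 0.13 to 0.31 for BCL2L11, 0.10 to 0.86 for PMAIP1 and -0.47 to -0.19 for BCL2. In homozygous against hemizygous they ran from 0.067 to 0.53 for BBC3, -0.25 to -0.0046 for PMAIP1, 0.0028 to 0.30 for BAX and -0.13 to -0.0037 for BAK1. The cause of these shifts was not tested.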
